A study of Mus musculus with 18 samples.

Results

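The lysosomal cathepsins Ctss, Ctsb, Ctsc, Ctsd, Ctse, Ctsh, Ctsk, Ctsl and Ctsz and their secreted inhibitor cystatin C (Cst3) were followed in lacrimal glands (LGs). They were taken by symbol and are 10 of the 54232 genes in the count table. Cathepsins are made as inactive precursors, reach endosomes and lysosomes mainly through mannose 6-phosphate receptors, and are activated there at low pH. Ctsd and Ctse are aspartic peptidases, and the others are papain-like cysteine peptidases, which cystatin C blocks by binding their active site. In antigen-presenting cells they cut proteins and the class II chaperone CD74 into peptides, and cathepsin S, which stays active at neutral pH, is measured in tears as a marker of autoimmunity in the LG.

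Whole-gland RNA was compared between BALB/cJ controls (BALB/c) and NOD.B10Sn-H2b/J mice (NOD.H-2b), an inbred model of Sjögren's syndrome. The latter strain is diabetes-resistant and carries the H2b haplotype of C57BL/10SnJ on the NOD background, so the strains differ at many loci and not at a chosen gene. All 18 mice were males bought from a supplier, with 3 mice per strain at each of 3 ages in months (2M, 4M and 6M), and each library came from 1 gland of 1 mouse. The totals were between 49480781 and 103936830 counts per mouse, and levels are given as CPM, counts scaled to library size with TMM factors.

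The tissue label was checked against marker lists. Acinar genes such as secretoglobins and Aqp5 summed to between 51244 and 134773 CPM, and genes of salivary gland to at most 1.73 CPM, of which Smr3a had no count in any mouse. The BALB/c 4M replicate 3 stood apart from its mates, with 315 CPM over 11 class II genes against 164 and 173, and with 4.68 CPM over 7 T cell genes against 0.772 and 1.23. The NOD.H-2b 2M replicate 1 had 0.969 CPM over 8 B cell genes against 10.7 and 27.3. Calls that changed without either mouse are given both ways.

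The gene neighborhood and start regions of 4 members are shown because these members moved in opposite directions between the strains. Ctsk (chr3:95499256-95509362) and Ctss (chr3:95526786-95556403) lie on the plus strand of GRCm38 with 17423 bases between them. Ctsd (chr7:142375911-142388038) and Ctsl (chr13:64359337-64370890) are on the minus strand. These gene coordinates are those of GENCODE M21. The windows below run from 250 bases before to 50 bases after the start site in RefSeq for GRCm38.p6, 5′ to 3′ on the gene's strand, at chr3:95526536-95526835 (Ctss), chr3:95498960-95499259 (Ctsk), chr7:142387778-142388077 (Ctsd) and chr13:64370471-64370770 (Ctsl). The RefSeq start was the same as the GENCODE gene start for Ctss, 46 bases upstream of it for Ctsk, and 211 and 370 bases inside the GENCODE gene for Ctsd and Ctsl, so that the Ctsl window lies within the gene as GENCODE draws it. Capitals mark the core of the interferon-stimulated response element and the PU.1 core in Ctss, the PU.1 core in Ctsk, and the E-box core of the lysosomal CLEAR element in Ctsd and Ctsl.
Ctss: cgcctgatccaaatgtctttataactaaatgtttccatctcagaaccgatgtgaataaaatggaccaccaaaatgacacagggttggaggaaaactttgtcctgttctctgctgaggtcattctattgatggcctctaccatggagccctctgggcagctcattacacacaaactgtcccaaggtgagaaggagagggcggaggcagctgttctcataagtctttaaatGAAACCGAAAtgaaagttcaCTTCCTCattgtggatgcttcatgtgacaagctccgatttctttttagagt
Ctsk: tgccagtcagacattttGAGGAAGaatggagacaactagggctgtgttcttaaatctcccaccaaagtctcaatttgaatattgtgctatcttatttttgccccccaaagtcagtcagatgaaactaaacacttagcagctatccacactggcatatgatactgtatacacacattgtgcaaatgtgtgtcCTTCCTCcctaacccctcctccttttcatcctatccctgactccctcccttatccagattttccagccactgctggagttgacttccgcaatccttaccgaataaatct
Ctsd: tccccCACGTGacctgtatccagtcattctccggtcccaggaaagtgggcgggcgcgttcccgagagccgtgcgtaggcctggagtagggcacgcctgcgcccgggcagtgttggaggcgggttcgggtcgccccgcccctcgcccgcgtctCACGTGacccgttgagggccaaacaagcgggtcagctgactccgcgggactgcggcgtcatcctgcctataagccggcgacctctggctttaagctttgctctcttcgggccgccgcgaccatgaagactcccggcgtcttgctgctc
Ctsl: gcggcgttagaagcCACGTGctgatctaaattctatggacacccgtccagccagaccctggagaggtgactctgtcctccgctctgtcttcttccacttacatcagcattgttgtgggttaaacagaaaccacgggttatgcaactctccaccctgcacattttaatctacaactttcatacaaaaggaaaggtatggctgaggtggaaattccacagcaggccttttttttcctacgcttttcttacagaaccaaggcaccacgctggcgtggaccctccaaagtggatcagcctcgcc

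Windows were found for 7 of the 10 members, those 4 with Ctsc, Ctsz and Cst3. The interferon-stimulated response element core (GAAA, any 2 bases, then GAAA, both strands) was in the Ctss window alone among the 7, at position -21 from the RefSeq start, from which all positions here are counted, and in 3.44% of 32851 mouse windows of this length. The PU.1 core (GAGGAAG, both strands) began at -1 in Ctss, at -233 and -59 in Ctsk and at -197 and -150 in Ctsc, and was in 13.6% of all windows. The CLEAR E-box core CACGTG, a palindrome, began at -245 and -98 in Ctsd and at -236 in Ctsl, and was in 7.15% of all windows. The STAT element (TTCNNNGAA, a palindrome) began at -236 in Ctsc, with 8.30% of all windows holding it. The GC box (GGGCGG, both strands) was in 5 of the 7 windows and in 35.7% of all. None of the marked matches overlapped another motif. A match describes the letters only, and binding was not measured.

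The strains were compared at each age with edgeR's quasi-likelihood test, and a gene is called higher or lower at a Benjamini-Hochberg adjusted p under 0.05 over all genes tested. All 10 members passed the filter on low counts at each age. Ctse did so at 2M and 6M through its counts in NOD.H-2b, the group where it was higher. With at least 10 counts required in every sample, Ctse was not tested at 2M and 6M. At 2M 7 members were higher in NOD.H-2b and 1 was lower, where 22.5% of 17200 genes were higher and 17.2% were lower. At 4M 6 were higher and 2 lower, beside 23.4% and 19.2% of 17722 genes. At 6M 6 were higher and 3 lower, beside 28.6% and 25.8% of 17750 genes. Differentially expressed genes (DEGs) also changed at least 2-fold. These were 4 members at 2M (15.8% of all genes), 4 at 4M (20.3%) and 6 at 6M (24.8%). Ctss, Ctse and Ctsh were DEGs with higher levels in NOD.H-2b at every age, and Ctsk was the only member that was a DEG with a lower level, at 4M and 6M. In a whole gland, fewer cells of a type and less RNA per cell cannot be told apart.

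**Figure D1:**
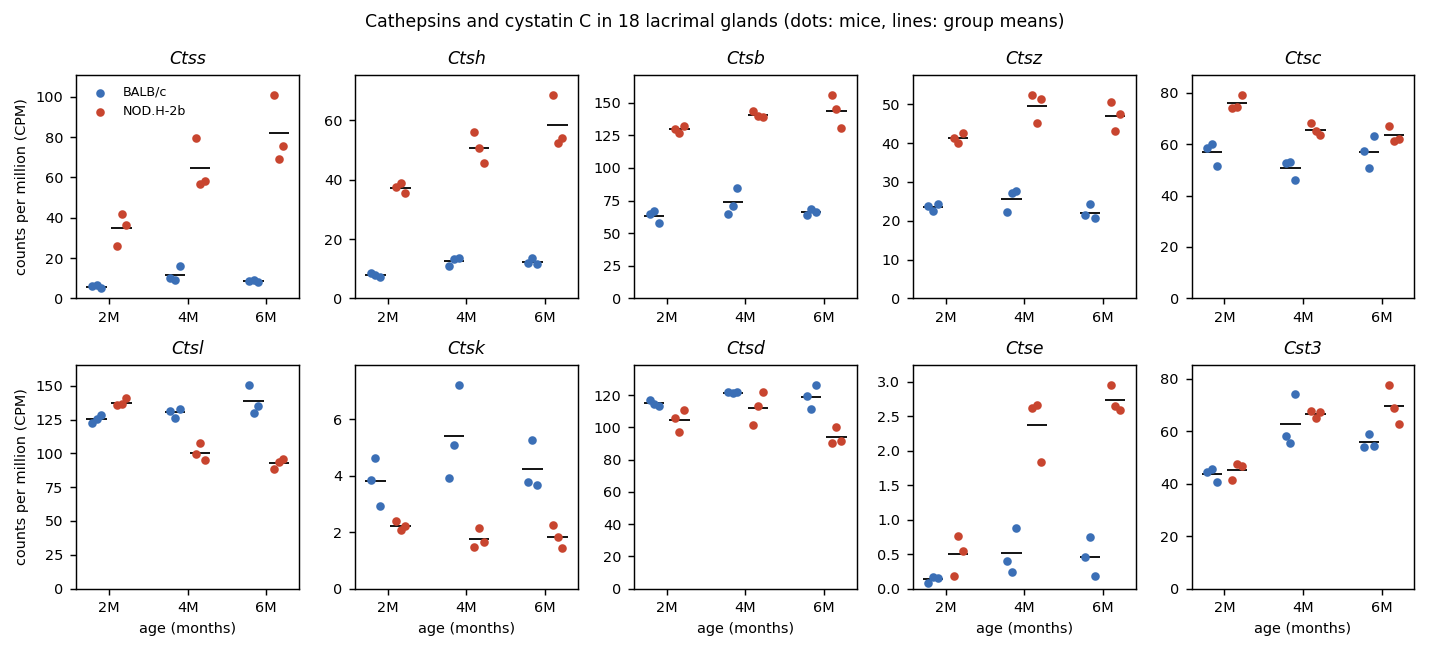
Level of each member (CPM, linear axes from 0) in each of 18 mice at 2M, 4M and 6M; dots are mice, lines are means of 3 mice, blue is BALB/c and red NOD.H-2b. The strains did not overlap at any age for Ctss, Ctsh, Ctsb, Ctsz, Ctse, Ctsl and Ctsk, and Ctsl changed sides after 2M. The share of all genes without overlap was not counted, so the lack of overlap describes each gene only.

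**Figure D2:**
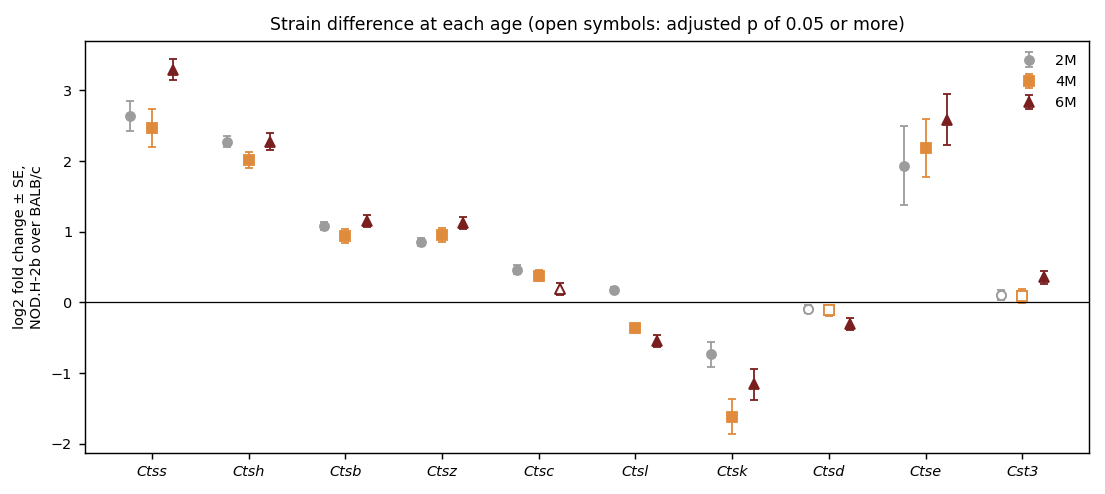
Log2 fold change of NOD.H-2b over BALB/c with its SE for each member at 2M (circles), 4M (squares) and 6M (triangles), 3 mice per strain; open symbols did not pass the test. Ctss reached 3.29 at 6M, while Ctsk was lower at every age and Ctsl passed from 0.18 to -0.54.

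Ctss had the largest strain difference of the 10 members at each age, except that Ctse passed it at 4M without BALB/c 4M replicate 3. The 3 BALB/c mice had 5.91, 6.46 and 4.96 CPM at 2M, and the NOD.H-2b mice 26.0, 41.9 and 36.4 CPM. At 4M the values were 10.1, 9.16 and 15.9 CPM in BALB/c, compared with 79.4, 56.7 and 58.1 CPM in NOD.H-2b. The 6M values were 8.44, 9.33 and 7.97 CPM against 101.0, 69.2 and 75.8 CPM. The lowest NOD.H-2b mouse was above the highest BALB/c mouse at each age, also when mice of different ages were set beside each other. Ctss was 6.21-fold higher at 2M (log2 fold change 2.63, SE 0.22, adjusted p = 0.000231), 5.52-fold at 4M (2.47, SE 0.26, adjusted p = 0.000938) and 9.78-fold at 6M (3.29, SE 0.15, adjusted p = 4.4e-07). Without BALB/c 4M replicate 3 the log2 difference at 4M was 2.75, and without NOD.H-2b 2M replicate 1 that at 2M was 2.80.

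Ctsh, an aminopeptidase that also matures surfactant protein precursors in lung, had the second largest difference at 2M, except that Ctse (2.32) passed it (2.26) without NOD.H-2b 2M replicate 1. It measured 8.60, 7.99 and 7.25 CPM in BALB/c, compared with 37.5, 38.8 and 35.6 CPM in 2M NOD.H-2b. By 6M it was at 12.0, 13.5 and 11.5 CPM in BALB/c, compared with 68.6, 52.3 and 53.9 CPM in NOD.H-2b. The groups were far apart and the spread within each was small. The log2 fold change was 2.27 (SE 0.08, adjusted p = 2.13e-09) at 2M, 2.02 (adjusted p = 1.81e-06) at 4M and 2.28 (adjusted p = 4.4e-07) at 6M, so the fold was between 4.05 and 4.84.

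Ctsb, which acts both as an endopeptidase and a carboxydipeptidase, and Ctsz, a carboxypeptidase also called cathepsin X, were both higher at every age. In Ctsb, BALB/c mice lay between 57.9 and 66.8 CPM at 2M and NOD.H-2b mice between 127 and 132 CPM, with a log2 fold change of 1.08 (adjusted p = 1.11e-07). The difference in Ctsb was 0.94 at 4M (adjusted p = 5.53e-05) and 1.16 at 6M (adjusted p = 3.09e-06). Ctsz was between 22.4 and 24.2 CPM for BALB/c mice, compared with between 40.0 and 42.6 CPM in 2M NOD.H-2b. Its log2 fold change was 0.86 (adjusted p = 6.32e-07) at 2M, 0.96 (adjusted p = 7.16e-05) at 4M and 1.13 (adjusted p = 4.72e-06) at 6M. None of the 3 ages had overlapping strains for either gene. The exons of Ctsb share 774 of 6051 bases with Fdft1 on the other strand, a gene with 24 to 222 counts per mouse beside at least 2819 for Ctsb, and those of Ctsz share 10 of 1441 bases with Nelfcd. Reads in the shared bases may have been dropped as ambiguous.

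Ctsc, the dipeptidyl peptidase that activates granule serine proteases, differed less. It measured 58.4, 60.2 and 51.7 CPM in BALB/c, compared with 74.0, 74.6 and 79.2 CPM in 2M NOD.H-2b, without overlap. At 6M the values were 57.3, 50.9 and 63.0 CPM against 67.2, 61.0 and 62.1 CPM, and the groups overlapped. The log2 difference was 0.46 (adjusted p = 0.000162) at 2M, 0.38 (adjusted p = 0.00248) at 4M and 0.19 (SE 0.09, adjusted p = 0.0937) at 6M. Without BALB/c 6M replicate 3 the 6M difference was 0.25 and passed the test (adjusted p = 0.0369).

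Of the granule proteases that depend on Ctsc for activation, 7 of 11 were tested at 2M, where 3 were higher and none lower in NOD.H-2b, and 6 at 4M and 6M, where 1 and then 2 were higher and 3 were lower. Gzmk, a granzyme of cytotoxic lymphocytes, had no count in BALB/c at 2M and 6M and a mean of 0.252 CPM and 0.650 CPM in NOD.H-2b. At these ages Gzmk passed the filter on low counts only through NOD.H-2b, so its direction was fixed. Within BALB/c from 2M to 6M, 4 of the 11 passed the filter, and genes that fell short there had the same limit. The summed level of the list was between 2.08 and 9.17 CPM in all mice, so these messages were rare in the gland.

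The aspartic peptidases differed in level and in response. Ctsd, a major lysosomal endopeptidase, was abundant in every mouse, at 117, 115 and 113 CPM in BALB/c, compared with 106, 97.3 and 111 CPM in 2M NOD.H-2b. At 6M it was at 119, 111 and 126 CPM in BALB/c, compared with 90.2, 100.2 and 91.8 CPM in NOD.H-2b. The log2 difference was -0.09 (SE 0.05, adjusted p = 0.203) at 2M and -0.11 (SE 0.08, adjusted p = 0.268) at 4M, and Ctsd was lower in NOD.H-2b at 6M (-0.30, SE 0.08, adjusted p = 0.00998). The 6M call was lost without NOD.H-2b 6M replicate 3 (-0.28, adjusted p = 0.0518), and without NOD.H-2b 2M replicate 3 Ctsd also passed at 2M (-0.15, adjusted p = 0.0367). In the annotation 808 of its 2351 exonic bases are shared with Gm49369 on the same strand, which had no counts, and reads in shared bases may have been dropped as ambiguous.

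Ctse, an endosomal aspartic peptidase best known from stomach epithelium and antigen-presenting cells, had the lowest mean CPM of the members in BALB/c at each age and in NOD.H-2b at 2M. In NOD.H-2b its mean was above that of Ctsk, at 2.37 against 1.76 CPM at 4M and 2.73 against 1.85 CPM at 6M. BALB/c mice had 4, 9 and 9 counts at 2M and NOD.H-2b mice 11, 50 and 35 counts. At 6M BALB/c mice had 42, 35 and 8 counts and NOD.H-2b mice 226, 151 and 148 counts. Ctse in NOD.H-2b rose above BALB/c at each age without overlap, by a log2 fold change of 1.94 (SE 0.56, adjusted p = 0.0171) at 2M, 2.19 (SE 0.41, adjusted p = 0.00218) at 4M and 2.59 (SE 0.36, adjusted p = 0.000213) at 6M. The 2M call was lost without BALB/c 2M replicate 1 (1.67, adjusted p = 0.0725), without NOD.H-2b 2M replicate 2 (1.48, adjusted p = 0.0825) or without NOD.H-2b 2M replicate 3 (1.85, adjusted p = 0.0528). Without NOD.H-2b 2M replicate 1, the lowest of its group, it was 2.32 (adjusted p = 0.00162). At 4M the log2 difference without BALB/c 4M replicate 3 was 2.86.

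Ctsk, the collagen-cleaving cathepsin of osteoclasts that fibroblasts also make, went the other way from its neighbor Ctss. It was at 3.86, 4.63 and 2.95 CPM in BALB/c, compared with 2.38, 2.09 and 2.20 CPM in 2M NOD.H-2b. At 4M it was at 3.91, 5.08 and 7.22 CPM against 1.48, 2.15 and 1.64 CPM, and at 6M at 3.78, 5.26 and 3.67 CPM against 2.26, 1.84 and 1.44 CPM. Every NOD.H-2b mouse was below every BALB/c mouse. Ctsk was 1.67-fold lower at 2M (log2 fold change -0.74, SE 0.18, adjusted p = 0.00716), 3.06-fold lower at 4M (-1.61, adjusted p = 0.000633) and 2.23-fold lower at 6M (-1.16, adjusted p = 0.00146). Without BALB/c 4M replicate 3, the highest of all mice, the 4M difference was -1.35 (adjusted p = 0.00157).

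Markers of cells known to make Ctsk were counted beside it, and their part in its level was not tested. Of 6 fibroblast genes such as Col1a1 and Dcn, 5 were higher in 2M NOD.H-2b and none lower, 1 was lower at 4M and 1 higher at 6M. Their summed level was between 484 and 632 CPM for BALB/c mice, compared with between 719 and 807 CPM in 2M NOD.H-2b, between 367 and 561 CPM and between 318 and 379 CPM at 4M, and between 326 and 419 CPM and between 310 and 381 CPM at 6M. Of the 4 osteoclast genes, 2 were tested and higher at each age, and Calcr, a defining gene, had no count in any mouse.

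Ctsl, a lysosomal endopeptidase that nearly all cells make, was the member whose strain difference changed sign with age. At 2M BALB/c mice were at 123, 125 and 128 CPM and NOD.H-2b mice at 136, 136 and 141 CPM. At 4M the values were 132, 126 and 133 CPM in BALB/c, compared with 99.3, 107 and 95.4 CPM in NOD.H-2b. The 6M values were 151, 130 and 135 CPM in BALB/c, compared with 88.7, 93.9 and 96.3 CPM in NOD.H-2b. NOD.H-2b mice were all above BALB/c mice at 2M and all below them at 4M and 6M.

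The log2 difference in Ctsl was 0.18 (SE 0.04, adjusted p = 0.00869) at 2M, -0.37 (SE 0.07, adjusted p = 0.00177) at 4M and -0.54 (SE 0.08, adjusted p = 0.00038) at 6M. The small difference at 2M was not called when all 18 mice were fitted together (0.13, adjusted p = 0.101) or without BALB/c 2M replicate 1 (0.16, adjusted p = 0.0518). Strain by age was tested as the change from 2M to 6M in NOD.H-2b minus that in BALB/c, over all 18 mice. Ctsl was the only member called (-0.71, SE 0.09, adjusted p = 0.000262), beside 16.1% of 19117 genes in either direction. It kept the call without each mouse in turn, with values between -0.80 and -0.68. The exons of Ctsl share 1742 of 6489 bases with Gm47123 on the other strand and 395 with the pseudogene Gm49230, which had at most 2 counts in any mouse. Reads in these shared bases may have been dropped as ambiguous, which the low counts of the other genes do not exclude.

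Cystatin C was abundant and differed little between strains until 6M. Cst3 measured 44.7, 45.5 and 40.5 CPM in BALB/c, compared with 41.6, 47.7 and 46.7 CPM in 2M NOD.H-2b, with overlap. At 6M it measured 54.0, 59.1 and 54.6 CPM in BALB/c, compared with 77.7, 69.0 and 62.7 CPM in NOD.H-2b, without overlap. The log2 difference was 0.10 (SE 0.07, adjusted p = 0.284) at 2M, 0.09 (SE 0.10, adjusted p = 0.501) at 4M and 0.36 (SE 0.09, adjusted p = 0.00749) at 6M. At 4M BALB/c mice were at 58.4, 55.7 and 74.2 CPM and NOD.H-2b mice at 67.9, 65.0 and 67.2 CPM, and without BALB/c 4M replicate 3 the difference was 0.23 and passed the test (adjusted p = 0.0473).

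Among 14 other cystatins, 8 had no count in any mouse, and 2 were tested at 2M with no call and 4 at 4M and 6M with 2 higher and none lower. Cst7, an inhibitor made by leukocytes, had a mean of 0.125 CPM in 2M NOD.H-2b and of 1.65 CPM at 4M, against 0.0532 CPM in BALB/c at 4M. Its log2 fold change was 4.80 (adjusted p = 0.00016) at 4M and 4.37 (adjusted p = 6.87e-06) at 6M. Within BALB/c, only 1 of the 14 passed the filter on low counts, from 2M to 4M and from 2M to 6M. The others could be tested at 4M and 6M only through their level in NOD.H-2b, so their direction was close to fixed. Cst6, cystatin E/M, had log2 differences of 0.61 (adjusted p = 0.319), 1.20 (adjusted p = 0.142) and 0.59 (adjusted p = 0.292) at 2M, 4M and 6M. Cstb, the cytosolic cystatin B, was the most abundant of the list and had log2 differences of 0.26 (adjusted p = 0.0628), 0.11 (adjusted p = 0.456) and 0.03 (adjusted p = 0.814) at 2M, 4M and 6M.

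Levels of different members were compared as CPM divided by the exonic length in kilobases (RPKM). In BALB/c at 2M the order was Ctsd (48.9 ± 0.781 RPKM, SD, n = 3), Cst3 (34.4 ± 2.09), Ctsl (19.3 ± 0.447), Ctsz (16.3 ± 0.648), Ctsb (10.4 ± 0.773), Ctsc (9.78 ± 0.775), Ctss (4.25 ± 0.561), Ctsk (2.52 ± 0.558), Ctsh (1.77 ± 0.150) and Ctse (0.0417 ± 0.0153). The ranges of Ctsb and Ctsc overlapped, and those of the other neighbors did not. In NOD.H-2b at 6M Ctss was first (60.4 ± 12.4 RPKM), with a range that overlapped that of Cst3 (55.1 ± 5.93), followed by Ctsd (40.0 ± 2.30), Ctsz (32.7 ± 2.54) and Ctsb (23.8 ± 2.12). Ctss thus ranked 7 among the 10 in the former group and 1 in the latter.

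**Figure D3:**
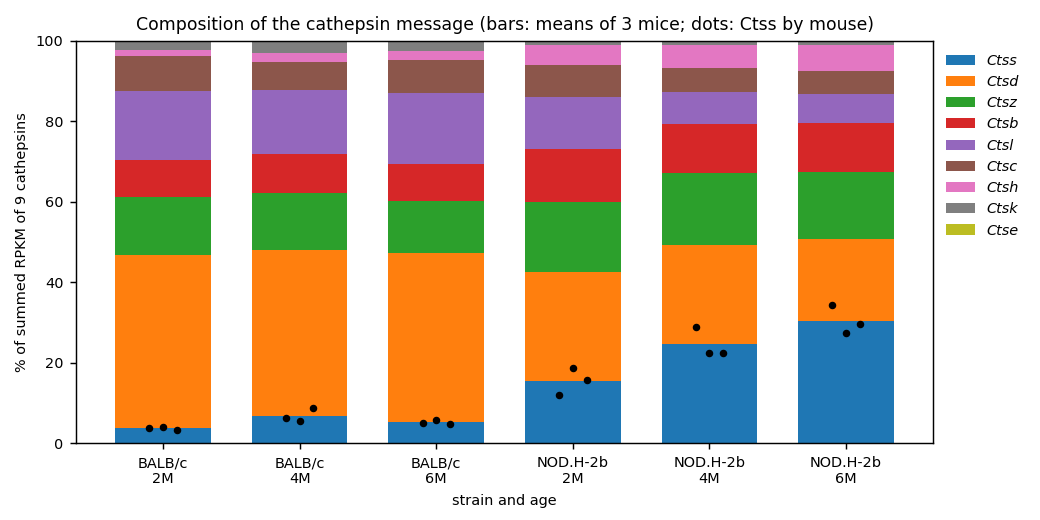
Mean share of each of 9 cathepsins in their summed RPKM (%, axis from 0 to 100) in each group of 3 mice; black dots give the Ctss share of each mouse. At 6M the Ctss share was 5.27% in BALB/c, against 30.4% in NOD.H-2b, and the Ctsd share 42.1% and 20.4%.

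Ctss made up 3.75% ± 0.425 of the summed cathepsin RPKM in BALB/c at 2M (SD, n = 3) and 15.5% ± 3.28 in NOD.H-2b. The share was 6.81% ± 1.73 and 24.6% ± 3.66 at 4M, and 5.27% ± 0.511 and 30.4% ± 3.57 at 6M. The sum of all 9 was between 111 and 115 RPKM in BALB/c and between 158 and 170 RPKM in NOD.H-2b at 2M, and between 118 and 121 RPKM and between 186 and 216 RPKM at 6M. Set against Cst3, the sum was 3.30 ± 0.136 times its RPKM in BALB/c, against 4.60 ± 0.214 times in NOD.H-2b at 2M, and 2.72 ± 0.176 and 3.58 ± 0.201 times at 6M. These levels rest on the length taken for each gene, which is uncertain where rare long transcripts are annotated. The levels of Ctsb, Ctsd and Ctsl are also too low if reads in their shared exons were dropped. With the length of the principal transcript, chosen after seeing the data, the Ctss share was 3.07% in BALB/c at 2M and 24.4% in NOD.H-2b at 6M, Cst3 (81.2 RPKM) stood above Ctss (60.5 RPKM) in the latter, Ctsh there was at 36.1 in place of 13.0 RPKM, and Ctsc in BALB/c at 2M at 22.8 in place of 9.78 RPKM.

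The course with age was compared within each strain, where both comparisons from 2M share the same 2M mice. From 2M to 4M in BALB/c, 4 members were higher (6.10% of 16639 genes) and none lower (5.01%). These were Ctsh (log2 change 0.67, adjusted p = 0.00146), Cst3 (0.53, adjusted p = 0.032), Ctse (1.95, adjusted p = 0.0366) and Ctss (1.03, adjusted p = 0.0469). Without BALB/c 4M replicate 3 the changes were 0.60, 0.39, 1.28 and 0.74, and Ctse was not called (adjusted p = 0.188). Without any of the 3 BALB/c 2M mice, Ctss, Ctse and Cst3 were not called and the count was 1, and without BALB/c 4M replicate 1 Ctss was not called (1.13, adjusted p = 0.0613). Over all genes 707 of 17043, 581 of 17003 and 574 of 17033 were higher without BALB/c 2M replicates 1, 2 and 3. The count with none lower had 5 members at an unadjusted p under 0.05 in either direction.

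Between 2M and 4M in NOD.H-2b, 5 members were higher (10.3% of 17763 genes) and 1 was lower (5.48%). Cst3 rose by 0.56 on the log2 scale (adjusted p = 0.00522), Ctsh by 0.45 (adjusted p = 0.0165), Ctse by 2.24 (adjusted p = 0.017), Ctsz by 0.27 (adjusted p = 0.0446) and Ctss by 0.90 (adjusted p = 0.0482). Ctsl fell by 0.45 (adjusted p = 0.00735). The count of higher members was 3 without NOD.H-2b 2M replicate 1, 4M replicate 1 or 4M replicate 3, and 1 without NOD.H-2b 2M replicate 3, where Cst3 alone passed. Over all genes 897 of 18249, 1013 of 18060, 1531 of 18250 and 337 of 18247 were higher in these 4 fits, in that order. The call of Ctss was kept without NOD.H-2b 2M replicate 1 or 2 and lost without any of the other 4 mice, and that of Ctsz was kept only without NOD.H-2b 4M replicate 2. Without NOD.H-2b 2M replicate 1 neither Ctsh (0.43, adjusted p = 0.052) nor Ctsz (0.24, adjusted p = 0.167) was called. The Ctsz call was also kept in only 1 of 7 other ways of processing, the fit of all 18 mice, with adjusted p from 0.0323 to 0.0895 over the 7. Without NOD.H-2b 4M replicate 1, 2 members were lower.

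From 4M to 6M no member was called in either strain with edgeR's quasi-likelihood test, where 0.307% of 16622 genes were called in BALB/c and 0.00555% of 18026 genes in NOD.H-2b in either direction. An unadjusted p under 0.05 was reached by 1 member in each strain. DESeq2 called none either.

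Over the whole span from 2M to 6M in BALB/c, 3 of the 9 members tested were higher (3.48% of 16579 genes) and none lower (2.13%), and Ctse did not pass the filter on low counts. Ctsh rose by 0.63 (adjusted p = 0.00393), Cst3 by 0.35 (adjusted p = 0.00706) and Ctss by 0.57 (adjusted p = 0.018). The Ctss call was lost without BALB/c 2M replicate 1 (0.58, adjusted p = 0.0645), 2M replicate 3 (0.47, adjusted p = 0.0827), 6M replicate 1 (0.57, adjusted p = 0.0529) or 6M replicate 2 (0.49, adjusted p = 0.0846). An unadjusted p under 0.05 was reached by 4 members, and DESeq2 called none lower.

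Between 2M and 6M in NOD.H-2b, 4 members were higher (20.7% of 18008 genes) and 2 were lower (19.4%). Ctse rose by 2.42 (SE 0.40, adjusted p = 0.00331), Ctss by 1.22 (SE 0.23, adjusted p = 0.0107), Ctsh by 0.63 (SE 0.10, adjusted p = 0.0023) and Cst3 by 0.60 (SE 0.10, adjusted p = 0.00207). Ctsl fell by 0.58 (SE 0.07, adjusted p = 0.000862) and Ctsc by 0.28 (SE 0.07, adjusted p = 0.0133). The Ctsc call was lost without NOD.H-2b 2M replicate 3 (-0.23, adjusted p = 0.0587) or without NOD.H-2b 6M replicate 3 (-0.26, adjusted p = 0.0536), and Ctsz passed without NOD.H-2b 6M replicate 2 (0.23, adjusted p = 0.0319). For Ctss the difference between the strains in this change was 0.67 (SE 0.33, adjusted p = 0.193), and for Ctsh 0.01 (SE 0.16, adjusted p = 0.98). For Ctsc it was -0.27 (SE 0.11, adjusted p = 0.11), and it passed the test without BALB/c 4M replicate 3 (-0.31, adjusted p = 0.0455) or BALB/c 6M replicate 2 (-0.39, adjusted p = 0.0238).

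**Figure D4:**
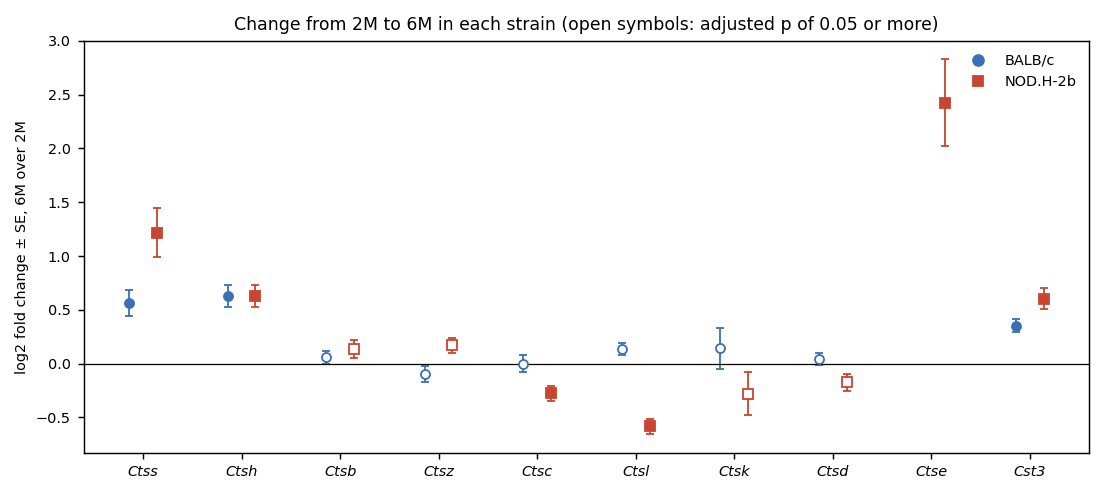
Log2 fold change from 2M to 6M with its SE for each member in BALB/c (blue circles) and NOD.H-2b (red squares), 3 mice per age; open symbols did not pass the test and Ctse was not tested in BALB/c. Ctsl fell by 0.58 in NOD.H-2b and was at 0.14 in BALB/c, while Ctsh rose by 0.63 in both strains.

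The peptidases outside the members were described from a list of 10, of which 9 were tested. At 2M 6 of them were higher in NOD.H-2b and none lower, and at 4M and 6M 6 were higher and 2 lower, with median log2 differences of 1.08, 1.36 and 1.33 beside 0.01, 0.00 and -0.00 over all genes tested. Counts in this and all other gene lists stand beside 22.5%, 23.4% and 28.6% of all genes higher at 2M, 4M and 6M. The shares of all genes lower were 17.2%, 19.2% and 25.8%. Lgmn, an asparaginyl endopeptidase that works beside the cathepsins in endosomes, was higher by 1.94 (adjusted p = 2.01e-07), 1.66 (adjusted p = 4.92e-05) and 1.88 (adjusted p = 5.28e-06) at 2M, 4M and 6M. Napsa, an aspartic peptidase, went from a mean of 0.271 to 3.07 CPM at 2M and from 0.461 to 22.3 CPM at 6M between BALB/c and NOD.H-2b (log2 difference at 6M 5.68, adjusted p = 5.42e-07). Ctsa, a serine carboxypeptidase that protects other lysosomal enzymes, was higher by 0.39 (adjusted p = 0.000157) to 0.65 (adjusted p = 0.000189).

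The other lysosomal genes did not move as a block. Of 42 hydrolases and membrane proteins, 22 were higher and 5 lower at 2M, 11 and 6 at 4M, and 14 and 8 at 6M, with medians of 0.17, 0.02 and 0.04. At 4M and 6M the counts of higher genes were near the shares over all genes, 23.4% and 28.6%. Gm2a, the activator of ganglioside breakdown, was higher by 0.81 (adjusted p = 0.000944), 1.25 (adjusted p = 0.000136) and 1.55 (adjusted p = 1.76e-06). Man2b1, a lysosomal mannosidase, was higher by 0.19 (adjusted p = 0.0188), 0.25 (adjusted p = 0.0492) and 0.55 (adjusted p = 0.000163).

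Among 4 transcription factors of lysosomal genes, 1 of 3 tested was lower and none higher at 2M, and 2 were higher and 1 lower at 4M and 6M. Tfe3 was the lower one, with a mean of 61.0 CPM in BALB/c, compared with 34.9 CPM in 2M NOD.H-2b and log2 differences of -0.76 (adjusted p = 4.39e-07), -1.10 (adjusted p = 1.36e-05) and -1.03 (adjusted p = 3.01e-06). Tfeb had a difference of -0.05 at 2M (adjusted p = 0.713) and was higher by 0.74 at 4M (adjusted p = 0.00248) and 1.14 at 6M (adjusted p = 5.76e-05).

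Of 6 genes that sort precursors to lysosomes, 1 was higher and 1 lower at 2M, and 3 were lower and none higher at 4M and 6M. Gnptg, a subunit of the enzyme that builds the mannose 6-phosphate tag, was lower by values of -0.41 (adjusted p = 0.000893), -0.66 (adjusted p = 0.000188) and -0.89 (adjusted p = 2.81e-05). Of 4 genes of regulated secretion and its signaling, 1 was higher and 3 were lower at each age. Rab3d, a Rab of acinar secretory vesicles, went from 354 to 256 CPM at 2M and from 319.7 to 188 CPM at 6M between BALB/c and NOD.H-2b (log2 difference at 6M -0.73, adjusted p = 0.000149). Rab27a was lower by values of -0.24 (adjusted p = 0.00307), -0.37 (adjusted p = 0.00328) and -0.66 (adjusted p = 0.000249). F2rl1, the protease-activated receptor PAR2 that cathepsin S can cleave, was the higher gene, by 1.05 (adjusted p = 0.000286), 1.14 (adjusted p = 0.00141) and 1.64 (adjusted p = 7.65e-05).

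Genes of class II antigen presentation, the pathway in which cathepsin S acts, were higher together. Of 11 genes, 9 were higher at 2M and 11 at 4M and 6M, with none lower and medians of 2.05, 2.51 and 3.60. Cd74, the substrate of cathepsin S in this pathway, had a mean of 50.5 CPM in BALB/c, compared with 159 CPM in 2M NOD.H-2b, and of 58.4 and 551 CPM at 6M (log2 difference 3.27, adjusted p = 2.94e-06). Ifi30, a lysosomal thiol reductase, was higher by 0.51 (adjusted p = 0.00219), 0.99 (adjusted p = 0.000315) and 1.27 (adjusted p = 2.06e-05). H2-Oa, a subunit of the class II modulator DO, had at most 1 count in BALB/c mice at 2M and a mean of 7.73 CPM in NOD.H-2b at 6M. Reads of both strains were aligned to GRCm38. Whether the H2 genes of both strains align to it equally well was not tested, which limits the strain differences of these genes.

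Markers of leukocytes moved with Ctss, Ctsh and Ctse, and their part in these results was not tested. Of 11 macrophage genes, 10 were higher at 2M, 8 at 4M and 8 at 6M, with 1 lower at 4M and 6M, and their sum was between 77.6 and 187 CPM for BALB/c mice, compared with between 257 and 484 CPM in NOD.H-2b mice of all ages. Of 8 dendritic cell genes, 7, 6 and 7 were higher, with sums of 4.71 to 15.0 CPM and 16.6 to 61.3 CPM. All 7 T cell genes were higher at each age, with sums of 0.229 to 4.68 CPM and 7.89 to 104 CPM. Of the B cell genes, 2 of 3 tested were higher at 2M and 8 of 8 at 4M and 6M, with sums of 0.123 to 2.30 CPM and 0.969 to 419 CPM. Within BALB/c from 2M to 6M, only 4 of 8 dendritic cell genes, 2 of 8 B cell genes and 2 of 7 T cell genes passed the filter on low counts. From 2M to 4M, 6 of 8 dendritic cell genes passed it there. Genes that fell short in BALB/c could be tested between strains only through their level in NOD.H-2b, so their direction was close to fixed. Of 5 plasma cell genes, 2 were higher and 1 lower at 2M and 3 and 1 at 4M and 6M. Neutrophil genes were near 0, at no more than 1.00 CPM in any mouse.

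Markers of the gland's own cells moved with Ctsl and Ctsd in part, which was not tested either. Of 7 acinar genes, 3, 4 and 6 were lower in NOD.H-2b at 2M, 4M and 6M and 1 was higher, with sums of 51244 to 67469 CPM in NOD.H-2b and of 116661 to 134773 CPM in BALB/c at 6M. At 2M the sums were 67718 to 72696 CPM in NOD.H-2b and 85670 to 86526 CPM in BALB/c, an age at which Ctsl was higher in NOD.H-2b. The acinar sum in BALB/c was higher at 6M than at 2M. Only 1 of the 7 acinar genes was called higher between these ages and none lower, with a median log2 change of -0.09. The shares over all genes were 3.48% and 2.13%. Neither Ctsl nor Ctsd was called between these ages in BALB/c. Ductal genes were higher for 5 of 7 at 2M, and at 6M 1 was higher and 2 were lower. Of the 5 myoepithelial genes, 1, 2 and 1 were lower. Endothelial genes were higher for 1, 1 and 2 of 4, and 1 was lower at 2M. Over all genes 22.5%, 23.4% and 28.6% were higher and 17.2%, 19.2% and 25.8% lower. Lists of 4 or 5 genes are too short for such counts to be set apart from these shares. No adipocyte gene was called, and 1 skeletal muscle gene that passed the filter was lower at each age.

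The genes most like each member were found by the root mean square distance between centered log2 CPM values over the 18 mice, among 7640 genes whose log2 CPM averaged 3 or more. For Ctss these were Fyb (0.15), an adaptor of T cells and myeloid cells, Laptm5 (0.16), a lysosomal membrane protein of leukocytes, and Mpeg1 (0.17), a pore-forming protein of macrophages. For Ctsh they were C1qb (0.20), Tgfbi (0.21) and Tap2 (0.21). For Ctse they were H2-Aa (0.60), Ankrd44 (0.60) and Dock2 (0.60). Ctsl was nearest to Ctns (0.08), the lysosomal cystine transporter, then Tpd52 (0.09) and Scamp1 (0.09). Ctsb and Ctsz had Ehd4 in common, a regulator of endosomal traffic, at 0.10 and 0.11. Ctsk was nearest to Mgll (0.26), Ctsd to Ost4 (0.05), Ctsc to Tgoln1 (0.09) and Cst3 to Dennd1a (0.14). The distances are a description, and the strain difference is part of them.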

How the data were processed

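Ribosomal RNA was removed from whole-LG RNA of the 18 males, and the authors sequenced paired reads with a kit that does not mark strand. Per the labels and the submitters' processing notes, reads were trimmed with cutadapt, checked with FastQC, aligned to GRCm38 with STAR and counted per gene with HTSeq, and the deposited raw counts are used here. A second deposited table of normalized values was not used. The annotation release and strand setting are not given in the sources used here. GENCODE M21 gave names and lengths for 54165 of 54232 genes and for all 10 members.

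Counts were analyzed in R 4.3.3 with edgeR 4.0.16 (TMM, filterByExpr, robust quasi-likelihood fit, Benjamini-Hochberg adjustment over all genes tested) on the 6 mice of each comparison, and on all 18 mice for strain by age. Each fit was scaled on its own mice, so its log2 fold changes can differ slightly from ratios of the printed CPM. A standard error is the log2 fold change over the square root of its F. DESeq2 1.42.0 served as an alternative, beside other scalings and filters, 1 fit of all 18 mice, a replicate block and leaving out each mouse. The fits were tested on simulated data. Pairs of replicates differed by a chi-square per gene of 17.7 to 91.1, above counting noise, so no library was counted as a repeat of another. Each library is from another mouse, and the replicate numbers were treated as unpaired, since no comparison had every same-numbered pair correlated over 0.1 (from -0.30 to 0.30). From 2M to 6M in BALB/c, however, 6 of 6 mice correlated best with their own number (0.017 to 0.054). In the other comparisons between 0 and 4 of 6 did. With the replicate block, 3 members were higher and none lower from 2M to 6M in BALB/c, as in the main fit.

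The members, gene lists and motifs were chosen with earlier results of these data known. Genes named from the lists were the members with the largest or smallest mean log2 difference among those called in the same direction at each age, beside Cd74, Lgmn, Cstb, Cst6, Cst7, Rab27a and Tfeb. The length of the principal transcript and the motifs were added after seeing the data.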

Additional observations from a re-analysis of the deposited data

Results flagged for a closer look

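Ctsl was set apart because its change with age differed between the strains. The change from 2M to 6M in NOD.H-2b minus that in BALB/c was -0.71 on the log2 scale (SE 0.09, adjusted p = 0.000262 with edgeR's quasi-likelihood test over 18 mice). All 3 NOD.H-2b mice at 6M were below all 3 at 2M, whereas the BALB/c mice at 6M were all above those at 2M without passing the test.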

How the results depend on the processing

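The strain calls of Ctss, Ctsb, Ctsh, Ctsk and Ctsz at each age held under every alternative run, and Ctsl held at 4M, at 6M and in strain by age. No scaling moved the median of all genes by over 0.1. Each group held 3 mice, and Ctse rests on few counts at 2M.

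Some counts of members called moved. In BALB/c between 2M and 4M, 1 member was higher with the replicate block, and 1 was lower with no filter on low counts, which also gave 1 lower from 4M to 6M. Over all genes these fits gave 819 of 16639 higher, 1234 of 27877 lower and 437 of 28318 lower. From 2M to 4M in NOD.H-2b, 3 were higher with DESeq2 size factors or no filter, 4 with the upper quartile, at least 10 counts in every sample or the DESeq2 Wald test, and 1 with the replicate block, and 2 were lower with DESeq2 size factors, the upper quartile, no filter, at least 10 counts in every sample or the DESeq2 Wald test. Over all genes 186 of 17763 were higher with the replicate block, against 1826 of 17763 in the main fit. With the other settings named, between 1564 and 2258 genes were higher and between 1022 and 1393 lower. From 4M to 6M in NOD.H-2b, 1 was higher with the replicate block and 1 lower in a fit of all 18 mice. Over all genes 317 of 18026 were higher with the block and 596 of 19117 lower in that fit. The main fit had 1 higher and 0 lower of 18026. From 2M to 6M in NOD.H-2b, 1 was lower with the replicate block, under which Ctss (adjusted p = 0.0583) and Ctsc (adjusted p = 0.0527) were not called. Over all genes 2222 of 18008 were lower with the block, against 3488 in the main fit. The Ctss change in BALB/c from 2M to 6M was not called in the fit of all 18 mice (adjusted p = 0.261), and Ctsc at 6M was called between strains with at least 10 counts in every sample (0.24, adjusted p = 0.0417). The cause of these changes was not tested.

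Leaving out each mouse in turn gave between 1 and 2 members lower between strains at 2M, from 2M to 4M and from 2M to 6M in NOD.H-2b and in strain by age, and between 1 and 4 higher from 2M to 4M in either strain. From 2M to 6M in BALB/c, values ranged from -0.081 to 0.067 for Ctsc, from -0.0093 to 0.080 for Ctsd and from -0.046 to 0.31 for Ctsk. In strain by age they ranged from -0.0057 to 0.15 for Ctsb and from -0.12 to 0.081 for Ctsh.

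The sign of values near 0 also turned. Ctsc from 2M to 6M in BALB/c (0.0012) was -0.00242 with DESeq2 size factors, -0.00241 with the Wald test, -0.012 with no filter and -0.0015 with the replicate block. Ctsh in strain by age (0.01) was -0.0067 with the upper quartile and -0.011 with 12 mice of 2M and 6M only. None of these was called.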
